A study of Homo sapiens with 6 samples.

Results

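The H3K4me3 regions found in ProMMP2-3xHA cells only comprised 400 of the 19068 regions of the ProMMP2-3xHA H3K4me3 list on chromosomes 1 to 22 and X. They were chosen by the called H3K4me3 intervals themselves: a region entered when it was at least 500 bp wide and overlapped no WT region of at least 500 bp. The 400 regions were 3.2% of the 12486 ProMMP2-3xHA regions of this width, and the other 12086 are called shared regions below. Of the 400, 55 overlapped a narrower WT region, and 345 overlapped no WT region of any width. Widths and presence in either H3K4me3 list were therefore used by the choice and are given as a description without a test.

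Native ChIP-Seq, in which micrococcal nuclease frees nucleosomes without crosslinking, was carried out in U2OS, a human osteosarcoma cell line. All cells were kept until 2 days over-confluence. In ProMMP2-3xHA cells, a lentiviral transgene under constitutive expression adds HA-tagged MMP-2 proenzyme (3xHA at the C-terminus, no domain removed) to that of the cells' own MMP2 gene, and the wild type (WT) cells are U2OS without the tagged protein. H3K4me3 was precipitated in 1 library of each line, and HA, which recovers the tagged protease, in 3 replicates of ProMMP2-3xHA cells. The differences between the lines below therefore describe 2 libraries, whose separate read depths are not in the lists (the study's methods give only a minimum common to all libraries), and a region missing from a list is a call that was not made. The stable line was derived apart from the WT cells, so the tagged protease and any other difference between these lines cannot be told apart.

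Trimethylation of lysine 4 on the tail of histone H3 marks nucleosomes beside active transcription start sites (TSSs), where it is laid down by SET1 and MLL enzymes, most strongly over CpG-rich promoters. Weaker and narrower H3K4me3 is also known at active enhancers. MMP-2 is a matrix metalloproteinase that also enters the nucleus, where it can clip the H3 tail, and clipping removes the lysine that carries this mark.

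The sequence of these regions set most of them apart from the usual H3K4me3 promoter. ProMMP2-3xHA regions narrower than 500 bp without any WT region, which the choice left out, had a like base composition, given below. Windows of 300 bases from GRCh37 are shown for the region closest to the median width and base composition, for the widest region, for the promoter-proximal region of SP7, and for 3 of the 4 regions with an HA peak in every replicate. A shared promoter region, SMARCA1, a chromatin remodelling ATPase, was taken close to the median composition of shared regions. Its 300-base window was poorer in CG dinucleotides, with an observed over expected ratio of 0.499. The lower quartile of this ratio was 0.64 in shared regions. Capitals mark CG dinucleotides.
EML4 intron 1 (chr2:42405817-42406116, plus strand): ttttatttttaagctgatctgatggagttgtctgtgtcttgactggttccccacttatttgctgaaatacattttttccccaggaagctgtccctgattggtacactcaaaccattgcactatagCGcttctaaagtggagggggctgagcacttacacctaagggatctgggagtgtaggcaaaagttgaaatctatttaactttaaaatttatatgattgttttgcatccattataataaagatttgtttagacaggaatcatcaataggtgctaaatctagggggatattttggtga
Widest region, nearest SLC10A2 (chr13:104533964-104534263, plus strand): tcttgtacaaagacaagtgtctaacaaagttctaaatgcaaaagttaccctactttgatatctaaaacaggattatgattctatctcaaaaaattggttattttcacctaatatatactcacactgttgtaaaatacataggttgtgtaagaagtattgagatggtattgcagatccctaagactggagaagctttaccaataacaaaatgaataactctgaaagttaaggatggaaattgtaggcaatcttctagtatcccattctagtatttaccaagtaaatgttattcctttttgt
SP7 (chr12:53738598-53738897, plus strand): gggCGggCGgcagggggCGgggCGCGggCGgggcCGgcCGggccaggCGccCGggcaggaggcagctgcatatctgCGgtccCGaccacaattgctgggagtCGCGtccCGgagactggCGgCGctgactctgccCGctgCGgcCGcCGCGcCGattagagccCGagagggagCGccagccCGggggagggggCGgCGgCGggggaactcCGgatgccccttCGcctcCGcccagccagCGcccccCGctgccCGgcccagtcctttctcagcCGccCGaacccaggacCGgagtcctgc
Between genes, nearest CFAP100 (chr3:126108011-126108310, plus strand): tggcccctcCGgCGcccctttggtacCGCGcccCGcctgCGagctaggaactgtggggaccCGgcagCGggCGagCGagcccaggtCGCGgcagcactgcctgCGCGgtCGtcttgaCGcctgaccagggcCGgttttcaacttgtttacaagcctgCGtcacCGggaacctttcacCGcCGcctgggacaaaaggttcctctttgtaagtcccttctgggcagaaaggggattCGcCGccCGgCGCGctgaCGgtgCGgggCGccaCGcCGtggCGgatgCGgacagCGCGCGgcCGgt
MIAT intron 2 (chr22:27043462-27043761, plus strand): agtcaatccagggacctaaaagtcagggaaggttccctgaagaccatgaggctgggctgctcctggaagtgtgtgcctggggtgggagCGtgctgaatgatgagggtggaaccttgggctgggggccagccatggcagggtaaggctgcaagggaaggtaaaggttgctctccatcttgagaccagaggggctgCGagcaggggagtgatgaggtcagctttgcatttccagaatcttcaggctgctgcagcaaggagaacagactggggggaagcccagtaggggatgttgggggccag
Nearest ZNF438 (chr10:31423347-31423646, plus strand): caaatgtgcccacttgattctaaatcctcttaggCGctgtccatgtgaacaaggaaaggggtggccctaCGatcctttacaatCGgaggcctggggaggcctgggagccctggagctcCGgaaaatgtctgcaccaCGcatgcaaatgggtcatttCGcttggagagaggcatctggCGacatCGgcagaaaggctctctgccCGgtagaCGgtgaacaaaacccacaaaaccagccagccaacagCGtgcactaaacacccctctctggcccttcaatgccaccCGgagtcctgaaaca
SMARCA1, shared with WT (chrX:128656582-128656881, plus strand): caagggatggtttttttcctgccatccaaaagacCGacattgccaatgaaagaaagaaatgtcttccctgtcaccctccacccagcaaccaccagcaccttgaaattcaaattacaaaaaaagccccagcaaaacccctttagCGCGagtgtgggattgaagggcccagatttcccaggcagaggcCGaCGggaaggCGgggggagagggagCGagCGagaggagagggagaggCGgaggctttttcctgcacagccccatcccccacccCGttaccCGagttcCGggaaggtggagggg
The EML4 window held 1 CG dinucleotide and the widest region's window none, against 12 in the window of SMARCA1. The SP7 and CFAP100 windows were at the other end, with 38 and 37 CG dinucleotides and a GC content of 78.3% and 69.3%. The windows from the 3 regions with HA in every replicate were unlike each other, with 37 CG dinucleotides near CFAP100, 12 near ZNF438 and 2 in MIAT. Each was placed inside its region, outside UTRs, as near as possible to the replicate 2 peak summit. All 3 lay at the region's edge. HA was scored over whole regions and not over these windows.

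The regions were narrow for H3K4me3. The median width was 735 bp, with quartiles of 601 and 855 bp, against 1385 bp in shared regions and 816 bp in the 2684 regions of at least 500 bp found in WT cells only. In all, 222 regions were 600 to under 900 bp wide, 43 were at least 1 kb and 3 were at least 2 kb. Just inside the width limit lay regions of 500, 501 and 501 bp, and just outside it lay ProMMP2-3xHA regions of 498, 498 and 496 bp without such a WT region. The nearest WT region of at least 500 bp was farther than 10 kb from 357 regions, and within 1 kb of 5.

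**Figure D1:**
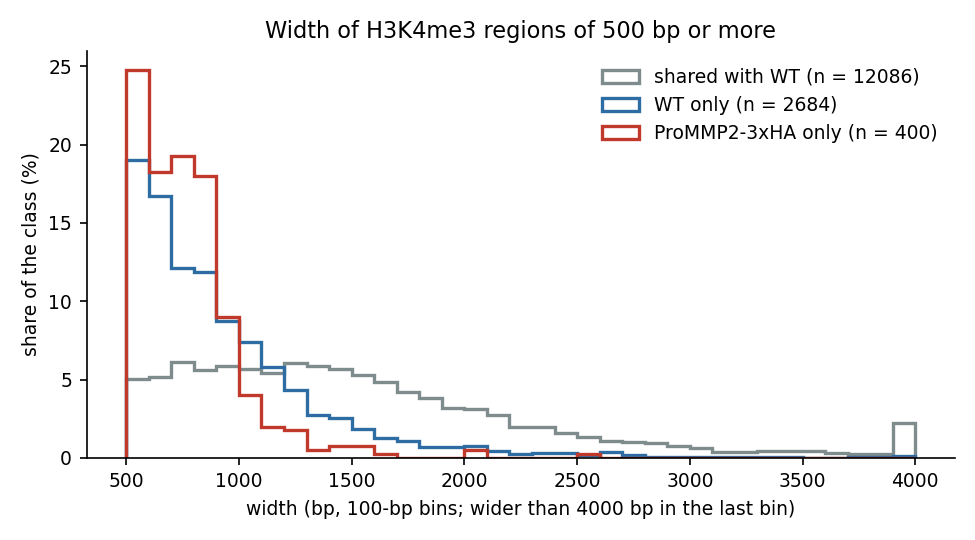
Share of each class (y axis, percent) by width of the H3K4me3 region (x axis, bp, 100-bp bins from 500 bp) for regions of ProMMP2-3xHA cells only (red), WT only (blue) and shared regions (grey). The red line lies mostly below 1000 bp, with 43 of 400 regions at or above it, while the grey line has its median at 1385 bp.

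Among the 55 regions with a narrower WT region, the WT interval was 149 to 498 bp wide with a median of 410 bp. The ProMMP2-3xHA interval was a median of 1.96 times as wide, from 1.14 to 8.19 times. For 16 of them the ratio was below 1.5, and for 27 it was 2 or more. Both lines thus carried a call at these 55, on either side of the width limit, and they are given apart from the 345 without any WT region for feature classes, TSSs, base composition, motifs and HA peaks.

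The 20 widest regions spanned 1192 to 2537 bp. Their centres fell in introns in 11 cases and between genes in 8, and by gene starts 1 lay at a TSS. The widest, chr13:104532846-104535382, was intergenic, with SLC10A2, the intestinal bile acid transporter, as the nearest protein coding gene 814078 bp away, a GC content of 32.0% and no HA peak. The next was 2017 bp in intron 9 of TMEM44, a transmembrane protein gene, and the third, of 2002 bp, lay between genes on chromosome 8, 874445 bp from MYC. A region of 1631 bp on chromosome 7, nearest to ZNF722, held an HA peak in replicate 3 alone with a fold enrichment of 1.26, the lowest of that list. Introns of PARN, a poly(A) ribonuclease, DNM3, a dynamin, SP140L, HIVEP3, ELP4, an Elongator subunit, CCDC80, ALDH1A2, which makes retinoic acid, and CD160, a lymphocyte receptor, held a further 8. Of the remaining wide regions, 5 lay between genes with SOD1, GOPC, ZMAT4, NFE2L3 and SNTB1 as nearest protein coding genes, and 2 lay in introns of genes known by Ensembl identifiers near CLEC2D and CDH6. The C1R region, 1393 bp, was the TSS case by gene starts. The SP140L and CCDC80 regions also lay 1 kb or less from the start of a protein coding transcript. Of these 20 wide regions, 7 overlapped a narrower WT region and 3 a merged HA peak.

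By position, most of the regions lay in introns and between genes, in shares near those of the genome. The centre lay in an intron in 225 regions, or 56.2%, and 56.2% of bases of the genome are intronic by the same annotation. It lay between genes in 140 (35.0%, genome 37.4%), in a 3′ UTR in 6 (1.5%, genome 1.72%), in a coding exon in 2 (0.5%, genome 0.833%) and in another exon in 10 (2.5%, genome 2.35%). Centres at a promoter, 1 kb or less from a protein coding TSS, numbered 13 (3.25%, genome 1.3%, a log2 ratio of 1.32), and centres in a 5′ UTR numbered 4 (1.0%, genome 0.194%, a log2 ratio of 2.37). Of these, 11 promoter centres and 3 centres in a 5′ UTR were among the 55 regions with a narrower WT region. The 345 without any WT region had 2 promoter centres (0.58%, interval 0.0703 to 2.08%), below the 1.3% of the genome, and 1 in a 5′ UTR (0.29%). Their introns held 59.1% and intergenic DNA 36.2%, against 38.2% and 27.3% in the 55. The 4527 ProMMP2-3xHA regions narrower than 500 bp without any WT region were placed much as the 345. They had 56.2% of centres in introns, 38.1% between genes and 0.884% at a promoter. Shared regions had 68.0% of their centres within 1 kb of a TSS, a log2 ratio of 5.71. In all, 258 centres lay in an annotated gene, 190 of them in a protein coding gene and 66 in a lncRNA gene alone. The edge of 344 regions was more than 10 kb from any protein coding TSS, and that of 182 more than 100 kb.

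**Figure D2:**
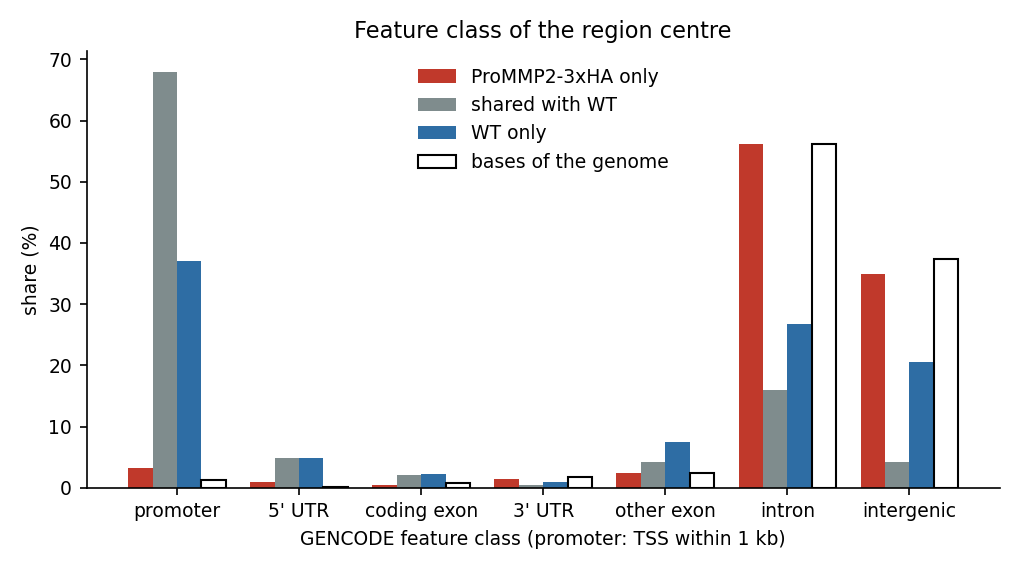
Share of region centres (y axis, percent) in each GENCODE feature class (x axis) for regions of ProMMP2-3xHA cells only (red), shared regions (grey), WT only regions (blue) and for all bases of the genome (white). The red and white bars are both at 56.2% for introns, and the grey bar stands at 68.0% for promoters, where the red bar is 3.25%.

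Only 16 of the 400 regions, 4.0% (95% exact interval 2.3 to 6.41%), lay 1 kb or less from a protein coding TSS, against 71.9% of all ProMMP2-3xHA regions of at least 500 bp. The share was 74.2% in shared regions and 40.0% in WT only regions. With the TSSs of all protein coding transcripts it was 7.5%, or 30 regions, a set that left out 2 of the 16. It was split by the WT call: 12 of the 55 regions with a narrower WT region lay at a TSS (21.8%), and 4 of the 345 without (1.16%, interval 0.317 to 2.94%). Shares and intervals here cover counting error within 1 library, and regions of 1 library are not replicates.

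The 4 regions at a TSS without any WT region belonged to LUM, AHSG, COX6A2 and OR51D1. LUM encodes lumican, a small leucine-rich proteoglycan that binds collagen fibrils, and its region of 989 bp began 85 bp inside the gene from the TSS. The nearest WT region of at least 500 bp was 1032682 bp from it, and its GC content was 29.4%. AHSG, the liver glycoprotein fetuin-A that inhibits mineralization and is stored in bone, had a region of 656 bp 677 bp from its TSS. COX6A2, the muscle form of a cytochrome c oxidase subunit, had a region of 818 bp 130 bp away. OR51D1, an olfactory receptor gene, had a region of 644 bp 885 bp away. The CpG ratio, observed over expected CG dinucleotides, was 0.238, 0.153, 0.183 and 0.175 in the same order, and none of the 4 overlapped an HA peak of any replicate.

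The other 12 regions at a TSS overlapped a WT region of less than 500 bp. SP7 (osterix), a transcription factor needed for osteoblast differentiation, had 623 bp in ProMMP2-3xHA cells and 463 bp in WT cells. WNT3A, a canonical Wnt ligand, had 560 and 447 bp, and AHR, the aryl hydrocarbon receptor, 827 and 423 bp. GPX3, a secreted glutathione peroxidase, had 503 and 411 bp, and AMPD3, an AMP deaminase, 856 and 427 bp. In C1R, the complement protease, the widths were 1393 and 170 bp, and in HECW1, a ubiquitin ligase, 534 and 149 bp, the largest ratios of the 12. The TSS shared by TLR1 and TLR6, Toll-like receptors of the innate response, had 1017 and 470 bp. BTBD19, ITIH5, ALG10B and ARHGAP24 had 611, 562, 778 and 894 bp against 491, 477, 414 and 404 bp. Of the 16 regions at a TSS, 7 were rich in CpG, with a GC content above 50% and a CpG ratio above 0.6 in the central 500 bp.

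The labelled cell type was checked on 22 osteoblast and bone matrix genes. RUNX2, SPARC, MSX2, COL1A1 and TNFRSF11B had a region of at least 500 bp near the TSS in both lines, and SP7 only in ProMMP2-3xHA cells, with the 463 bp WT region named above. BMP2 had one in WT cells and none of this width in ProMMP2-3xHA cells. The mature osteoblast genes BGLAP, IBSP, SPP1 and ALPL had none in either line. SP7 was thus 1 of 22 genes of the list with a TSS at one of the 400 regions (4.55%), against 17 of 20098 protein coding genes (0.0846%). The share of the list rests on this 1 gene and was not tested. WNT3A was 1 of 182 signalling ligand genes. The other 11 gene lists, which cover collagens, metalloproteinases and their inhibitors, cathepsins, integrins, laminins and cadherins, developmental and ZNF transcription factors, channels and synapse genes, cancer-testis antigens, interferon and antigen presentation genes, H3K4 methyltransferases and demethylases, and ribosomal proteins, had 0 genes with such a TSS. MMP2 itself carried a shared region, 1844 bp wide in ProMMP2-3xHA cells and 1658 bp in WT cells.

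Gene bodies were reached more often than TSSs. One of the 400 regions overlapped the body of 198 of 20098 protein coding genes (0.985%). The channel and synapse list had 6 of 160 genes (3.75%), among them CACNA1D, a calcium channel subunit, and SNAP25, a SNARE protein. The signalling ligand list had WNT3A, WNT5B and NRG3, 3 of 182 (1.65%). COL13A1, CDH23, PAX5 and ZNF281 were the 1 gene of their lists, and metalloproteinase, cathepsin, interferon, H3K4 enzyme and ribosomal protein genes had none.

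The base composition of most regions was near that of bulk DNA, with a somewhat higher median GC content. This median was 42.4% (interval 41.4 to 43.3%, quartiles 36.7 and 48.3%). It was 42% in the central 500 bp (interval 40.8 to 43.4%). All 500 bp tiles of the genome had 40.0%, and shared regions 60.4%. The median CpG ratio was 0.177, against 0.181 in tiles, 0.736 in shared regions and 0.708 in WT only regions. It was 0.162 in the 345 regions without any WT region and 0.444 in the 55 with a narrower one. CpG-rich centres, as defined above, made up 16 regions (4.0%), 13 of them among the 55 and 3 among the 345, whereas 76.7% of shared regions and 1.19% of tiles had one. Shared regions away from the TSSs of protein coding transcripts still had a median CpG ratio of 0.646. The 4527 narrower ProMMP2-3xHA regions without any WT region lay near the 345. Their medians were a GC content of 42.9% and a CpG ratio of 0.166, and 0.552% had a CpG-rich centre. The highest CpG ratio of the 400, 1.32, belonged to an intergenic region at chr16:46391314-46392124 with a GC content of 35.1%.

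**Figure D3:**
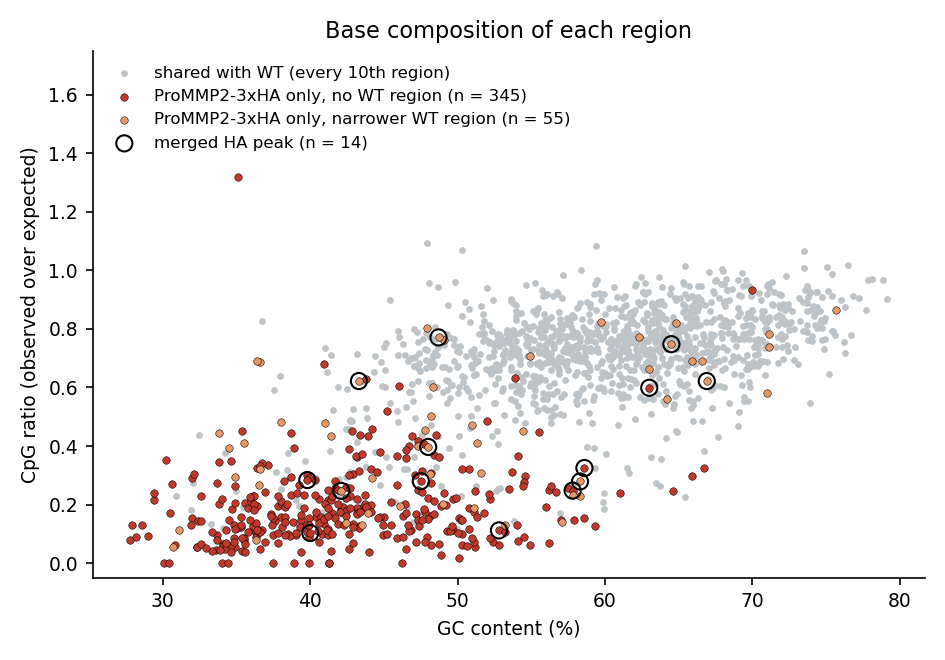
CpG ratio (y axis, observed over expected) against GC content (x axis, percent) for each region of ProMMP2-3xHA cells only, without any WT region (red) or with a narrower one (orange), over every 10th shared region (grey); rings mark the 14 with a merged HA peak. Most red points lie at the lower left, around the medians of 41.7% and 0.162, and orange points reach into the grey cloud.

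Short sequence motifs were counted on either strand in the central 500 bp. TGANTCA, the AP-1 element widened to any base at its centre, was found in 76 regions (19.0%, interval 15.3 to 23.2%). It was found in 15% of genome tiles, 5.77% of shared regions and 9.67% of shared regions away from the TSSs of protein coding transcripts. GGAATG, the TEAD element, was found in 27.5%, against 24.5% of tiles and 17.3% of shared regions. TGTGGTT, the element of RUNX factors, was found in 10.0%, against 9.49% of tiles and 4.2% of shared regions. GGGCGG, the GC box bound by Sp factors, was found in 43.6% of the 55 regions with a narrower WT region and 7.54% of the 345 without, against 6.56% of tiles and 73.2% of shared regions. The 4 motifs were searched separately, and 1 window may hold several. In the 55 and the 345 regions, the shares were 14.5 and 19.7% for TGANTCA, 29.1 and 27.2% for GGAATG, and 10.9 and 9.86% for TGTGGTT.

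HA peaks, which were not used to choose the regions, were next laid over them to ask whether the tagged protease was found there. Of the 400 regions, 14 overlapped a peak of the merged HA list, 3.5% (interval 1.93 to 5.8%), against 46.9% of all ProMMP2-3xHA regions of at least 500 bp. The number was 6 in replicate 1 (1.5%, all regions 33.8%), 10 in replicate 2 (2.5%, all regions 46.5%) and 16 in replicate 3 (4.0%, all regions 47.2%). A peak of any replicate was found in 20 regions (5.0%, all regions 58.5%) and a peak of every replicate in 4 (1.0%, all regions 26.7%). The 3 replicates thus gave low values in the same order of size as their shares over all regions.

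In shared regions, the share was 34.9, 47.9 and 48.6% in replicates 1, 2 and 3. The difference was −33.4, −45.4 and −44.6 percentage points, a mean of −41.1 ± 6.71 (SD, n = 3), lower in 3 of 3 replicates (p = 0.25 in a two-sided exact permutation of the sign, which cannot give a smaller value with 3 replicates). The 400 regions were narrower than shared regions, so shared regions were also weighted to the widths of the 400. Their share then fell to 19.4, 29.1 and 28.5%, and the difference was −23.0 ± 4.53 points (SD, n = 3). Away from the TSSs of all protein coding transcripts, 370 of the 400 and 1541 shared regions remained, with shares of 1.62, 2.16 and 3.78% against 25.2, 37.1 and 34.8%. This difference was −29.8 ± 5.72 points (SD, n = 3). In each of these comparisons the range of the 3 replicates in the 400 regions lay below that in shared regions. The last comparison removed the TSSs of protein coding transcripts only. A lncRNA gene TSS lay 1 kb or less from 40.2% of the 1541 shared regions and 4.59% of the 370. CpG-rich centres made up 50.5% of the 1541 and 2.43% of the 370. By gene starts, 2 of the 370 were still at a protein coding TSS.

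**Figure D4:**
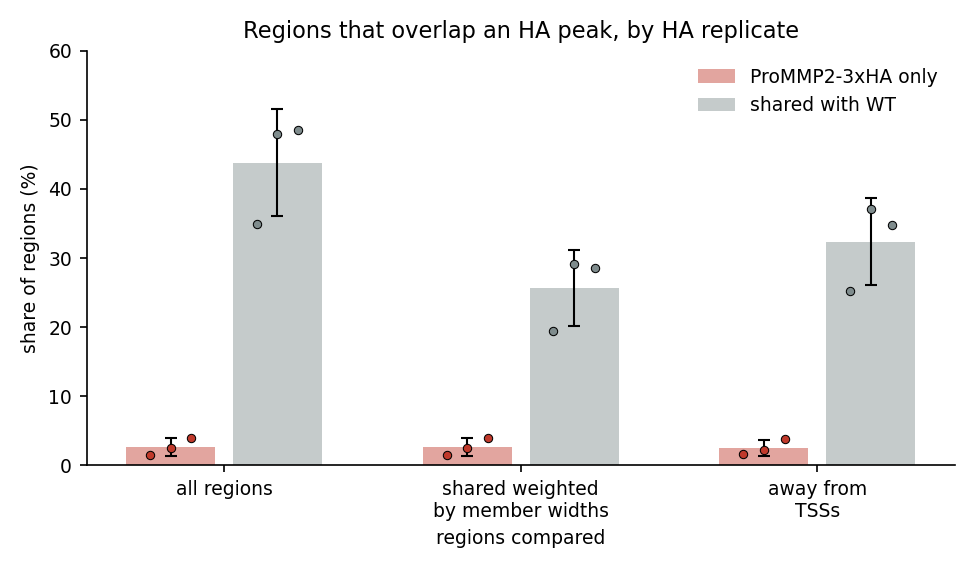
Share of H3K4me3 regions that overlap an HA peak (y axis, percent) in regions of ProMMP2-3xHA cells only (red) and shared regions (grey). The settings are all regions, shared regions weighted to the widths of the 400, and regions away from the TSSs of protein coding transcripts. Points are the 3 HA replicates, bars their mean and error bars the SD. Every red point is at 4.0% or lower and every grey point at 19.4% or higher.

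The WT call divided the HA peaks as well. A merged HA peak was found in 7 of the 55 regions with a narrower WT region (12.7%) and in 7 of the 345 without (2.03%, interval 0.82 to 4.14%). In replicates 1, 2 and 3, a peak was found in 5.45, 9.09 and 16.4% of the 55 and in 0.87, 1.45 and 2.03% of the 345. WT only regions had a merged HA peak in 9.91%, and the 4527 ProMMP2-3xHA regions narrower than 500 bp without any WT region in 0.265%. By width, 8 of the 36 regions of 1000 to under 1500 bp had one (22.2%, shared regions of this width 46.6%), 1 of 99 from 500 to under 600 bp (1.01%, shared 18.7%), 1 of 73 from 600 to under 700 bp (1.37%, shared 21.7%), 0 of 77 from 700 to under 800 bp (shared 28.4%) and 4 of 108 from 800 to under 1000 bp (3.7%, shared 34.6%). Of the 7 regions of at least 1500 bp, 0 had one (shared 62.5%). The 14 regions with a merged HA peak were a median of 1020 bp wide with a GC content of 50.8%, and the other 386 had medians of 728 bp and 42.2%.

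Where an HA peak was called, its median height lay on either side of that at shared regions. The median fold enrichment was 4.56, 6.3 and 4.66 in the 400 regions in replicates 1, 2 and 3, over 6, 10 and 17 peaks, against 4.91, 5.56 and 4.84 in shared regions. The log2 ratio was −0.11, 0.18 and −0.06, a mean of 0.01 with an SD of 0.154 (n = 3, p = 1.0 in the same exact permutation). Its sign differed between replicates, and the ratio rests on few peaks.

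The 4 regions with a peak in every replicate lay on different chromosomes. On chromosome 3, chr3:126108011-126108889 lay 4862 bp from the TSS of CFAP100, a cilia and flagella protein gene, with a fold enrichment of 5.06, 7.18 and 5.78 in replicates 1, 2 and 3, and a WT region of 407 bp. On chromosome 10, chr10:31422487-31423646 lay in an exon of a lncRNA gene, 101620 bp from ZNF438, with 4.11, 5.42 and 5.36. On chromosome 8, chr8:40958873-40960147 lay between genes nearest to ZMAT4, with 6.21, 4.66 and 3.85. On chromosome 22, chr22:27043462-27044602 lay in intron 2 of MIAT, a nuclear lncRNA, with 3.59, 6.34 and 3.23. The last 3 overlapped no WT region. Of the 4, the CFAP100 region had the highest value in 2 of 3 replicates.

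The other 10 regions with a merged HA peak were seen in fewer replicates. LEMD1, a cancer-testis antigen gene, had an intronic region with a fold enrichment of 5.0 and 7.66 in replicates 1 and 2. KCNN4, a calcium-activated potassium channel, had 6.34 and 4.26 in replicates 2 and 3, and the intergenic region nearest to NFE2L3 had 6.27 and 6.98. Replicate 3 alone gave the regions in TRIM54 (5.39), in CLIP4 (4.66) and a pair of neighbours nearest to SNTB1 (5.25 and 5.81), and replicate 1 alone the region nearest to OR13A1 (4.11). The regions nearest to MAB21L3 and GPIHBP1 overlapped the merged list and no replicate. By gene starts, none of the 14 was at a protein coding TSS, though the CLIP4 region lay 1 kb or less from the start of another protein coding transcript. Among regions at a TSS, 3 had a peak of a replicate without one in the merged list: SP7 in replicates 2 and 3 (4.15 and 4.18), BTBD19 in replicate 2 (9.16) and AHR in replicate 3 (4.29).

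The regions were spread unevenly over the chromosomes. There were 1.41 per 10 Mb of sequence in all, 3.74 on chromosome 14 (33 regions), 3.73 on chromosome 22 (13), 2.64 on chromosome 7 (41) and 2.59 on chromosome 8 (37). Chromosomes 17, 13 and X had 0.514, 0.314 and 0.199 per 10 Mb. ProMMP2-3xHA regions narrower than 500 bp without a WT region, which the choice left out, had 16 per 10 Mb in all, 26.4 on chromosome 22, 24.6 on chromosome 14, 22.5 on chromosome 8, 4.29 on chromosome 13 and 2.38 on the X. Across the 23 chromosomes, Spearman's rho between these densities was 0.798, and −0.243 between the 400 and WT only regions. Both are descriptions without a test, over points that share the same libraries.

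**Figure D5:**
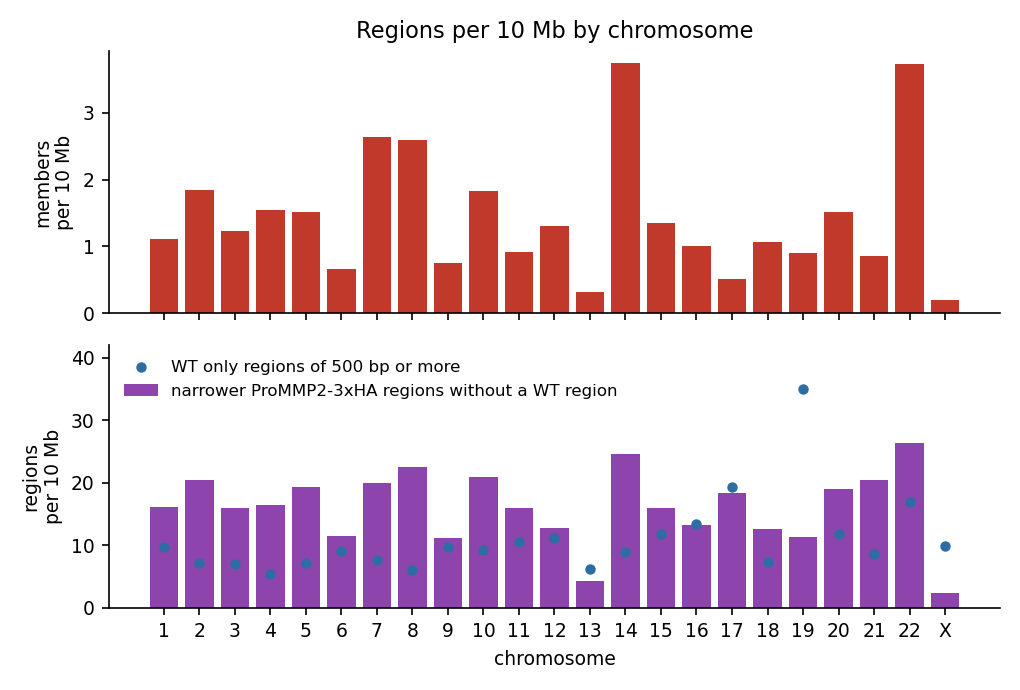
Density per 10 Mb (y axes) by chromosome (x axis) for the regions of ProMMP2-3xHA cells only (upper, red bars), for narrower ProMMP2-3xHA regions without a WT region (lower, purple bars) and for WT only regions (lower, blue points). Chromosomes 14 and 22 have the tallest red bars, 3.74 and 3.73, and the tallest purple bars, 24.6 and 26.4, while the X is lowest in both.

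Within chromosomes, 379 regions stood alone, 9 pairs lay within 50 kb of each other, and 1 group of 3 lay beside and in CFAP100, at widths of 909, 879 and 931 bp. Of this group the middle region had the HA peaks given above, and the outer 2 had none. Of 5 Mb bins, 230 held a region and 10 held at least 5. The fullest, on chromosome 7 from 25 to 30 Mb, held 10 regions, 28 shared regions and 1 WT only region, and it contains JAZF1 and CREB5, transcriptional regulators with 2 regions each. The next, on chromosome 8 from 80 to 85 Mb, held 8. There, 3 regions of 914, 728 and 552 bp lay in introns of a lncRNA gene, ENSG00000254394. GPHN, which encodes the synaptic scaffold gephyrin, had 3 regions of 771, 607 and 906 bp in introns 3, 4 and 21, and the lncRNA gene LINC02934 between SPRED2 and MEIS1 had 3 of 859, 815 and 651 bp. A further 10 genes had 2 regions each. None of the 9 regions in these 3 genes overlapped a merged HA peak, and 8 overlapped no WT region.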

How the data were processed

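Native ChIP-Seq peak lists of 5 of the 6 samples and 1 merged HA list were used; the HA sample of WT cells is not analysed here as a list. Per the submitters' processing notes and the study's methods, the authors trimmed reads with Trim Galore 0.6.0, aligned them to GRCh37 (hg19) with Bowtie2 2.3.5.1, filtered them with SAMtools 1.9 and Picard, and called peaks with MACS2 3.0.0a6 at a q of 0.05 against an input or control immunoprecipitation. In both H3K4me3 lists and the merged HA list, the authors combined narrow and broad calls into intervals without values. The smallest gap between regions was 1001 bp in ProMMP2-3xHA cells and 1048 bp in WT cells, so calls closer than this were joined. The deposited HA replicate lists give, for each peak, a score, the fold enrichment as a ratio, and −log10 p and −log10 q; the score and −log10 p were not used. The 3 replicate lists held 6391, 9176 and 8906 peaks on chromosomes 1 to 22 and X, and the merged list 7211. No file holds read counts, so the depth of each library is unknown beyond the common minimum in the study's methods.

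Repeated lines of an interval were collapsed to the one with the largest fold enrichment. Overlap meant at least 1 bp unless a distance is given. Genes came from GENCODE 44 on GRCh37. Each region's centre was classed as promoter (a protein coding TSS 1 kb or less away), and where that failed as a 5′ UTR, then a 3′ UTR, then coding or other exons, introns and intergenic DNA. GC content and CpG ratio were counted on GRCh37. Python 3.11.15, pandas 2.3.3, numpy 2.4.6, scipy 1.17.1 and pysam 0.24.0 were used. Shares have 95% exact (Clopper-Pearson) intervals, for counting error only. HA replicates were compared with a two-sided exact sign permutation. The overlap search was tested on simulated regions, and the choice of regions on a copy of the list with regions removed. The permutation was tested on made-up values, and base counting was not tested in this way. The replicates are biological replicates per the study's methods.

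The regions, gene lists and tests were chosen with earlier results of these data known. Named are the 20 widest regions, those with a merged HA peak, those at the TSS of a listed gene, genes with at least 3 regions or regions within 50 kb of each other, and those next to the width limit; the other genes at a TSS or in gene bodies, and genes with 2 regions, were named after their values were seen. Alternatives were other width limits and windows, stricter HA peaks, other TSS sets and subsets of the regions.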

Additional observations from a re-analysis of the deposited data

Results flagged for a closer look

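Outside the chromosomes used above, 4 ProMMP2-3xHA H3K4me3 regions of at least 500 bp had no WT region of this width. All 4 lay on 1 unplaced contig, gl000220, with widths of 751, 635, 3017 and 1055 bp, and 1 of them overlapped a narrower WT region. They were outside the main measurement. In the other direction, 10 WT regions off these chromosomes had no ProMMP2-3xHA region of at least 500 bp.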

How the results depend on the processing

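The number of regions depended on the width limit: 678 at 300 bp, 246 at 750 bp and 129 at 1000 bp in both lists, against 400 at 500 bp; with WT regions of any width it was 345, and with a WT region within 1 kb 395. The share with a merged HA peak was 6.42% in the 187 regions of at least 750 bp and otherwise 2.03 to 4.5%. The share at a TSS was 7.5% with all protein coding transcripts and 1.16% without any WT region, and otherwise 3.25 to 4.75%. The share centred in introns or between genes was 91.2%, and 95.4% without any WT region. The median GC content was 41.2% in regions of at least 750 bp. HA shares stayed below those of shared regions in every alternative, by −23.0 to −42.4 percentage points, and by −39.0 to −45.0 without 1 replicate. The mean log2 ratio of fold enrichment was 0.03 at a q of 0.01 or less, and −0.08 to 0.06 without 1 replicate, being negative without replicate 2. The comparisons away from the TSSs of protein coding transcripts and without any WT region in the replicate shares were chosen after seeing the data. So were those without chromosome 8 (2.75%), of fold enrichment and of the intron and intergenic share. No paired analysis was possible because the groups share only replicate number 1; the HA comparisons took their differences within each HA replicate. With 1 H3K4me3 library a line and no counts or scores, neither the variation between H3K4me3 libraries nor a region's strength could be measured; a region near the limit may be present in both lines.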
